A study of Mus musculus with 12 samples.

Results

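The genes described here are 43 genes of mitosis, spindle and chromosome segregation: the G2/M cyclins and kinases, the kinetochore, the spindle checkpoint, spindle motors, cytokinesis factors and condensin. They were chosen by symbol from a list, out of 55416 genes in the deposited count table. The rule names no measured value, but earlier results of these data were known when the members were chosen. All 43 were found there and all 43 passed the filter on low counts, which left 13250 genes. RNA had been sequenced from C2C12, an established mouse myoblast line, in 12 libraries. The groups were wild-type (WT) cells in growth medium (WT GM, 10% fetal bovine serum), WT cells in differentiation medium (WT DM, 2% horse serum), cells labelled Mapk14 knockout in growth medium (KO GM) and the same in differentiation medium (KO DM). Each group held 3 libraries labelled as biological replicates, and all cells were at about 60% confluence when GM was kept or exchanged for DM for a further 5 days. GM also held penicillin–streptomycin, no other allele is named for any group, and the labels give a single batch for all libraries. The way the knockout was made and its number of clones are not given in the sources, and p-values measure the spread between these cultures only.

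Entry into mitosis is driven by the kinase CDK1 bound to A- and B-type cyclins. Their genes, with those of the kinetochore, spindle and cytokinesis apparatus, are transcribed late in the cell cycle under the transcription factors B-MYB (Mybl2) and FOXM1, which act with the MuvB complex. In resting or differentiating cells the same promoters are held silent by the DREAM complex, in which MuvB is joined by a pocket protein and an E2F. Myoblasts in low serum are known for leaving the cell cycle and fusing into myotubes, and a mitotic program is a common measure of the cycling share of a culture. In bulk RNA such as this, more cells in mitosis and more of a transcript per cell cannot be told apart.

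Library totals ran from 8821669 to 11536396 counts, with 16039 to 16677 genes detected in each. Levels are given in CPM, the counts of a gene relative to all counts of its library, scaled by TMM factors of 0.978 to 1.02. A count of 3, taken as the limit that a count of 0 allows, was 0.26 to 0.34 CPM, and covers counting error only. Mapk14, the gene of the knockout label, was at 130.1, 135 and 108 CPM in WT GM and 130.3, 136 and 137 in KO GM, and at 93.9, 91.2 and 88.7 in WT DM and 93.8, 90.0 and 84.5 in KO DM. Its RNA was thus not detectably lower under the KO label in GM (0.11 ± 0.08, adjusted p = 0.35) or DM (-0.03 ± 0.08, adjusted p = 0.822), and these cells are called KO-labelled below. The 12 myoblast and muscle markers were all detected. Summed, they held 2188 to 2936 CPM in the WT GM libraries and 8506 to 8700 after WT DM, against 589 to 887 for KO GM and 3686 to 4206 for KO DM. Of the markers of other cell types, the leukocyte genes Ptprc, Adgre1 and Tyrobp, the endothelial genes Emcn and Erg and the epithelial genes Epcam, Krt18 and Cldn4 had no count in any library. The summed level of 8 macrophage and leukocyte markers (mostly Cd14, Csf1r and Lyz2) was 34.3 to 47.7 CPM for WT GM and 19.3 to 22.3 for WT DM, against 39.5 to 46.1 for KO GM and 32.4 to 40.1 for KO DM. For 7 epithelial markers it was 0.898 to 14.4 CPM, nearly all Krt14 and highest in KO DM (13.4 to 14.4), and for 7 endothelial markers at most 0.798.

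Promoters of late cell cycle genes are known for a few shared short motifs, which were looked for in the members. Of the 43, 35 had an entry in RefSeq's promoter table, with 37 windows of 250 bases before to 50 after a start (GRCm38.p6; the deposited counts were made on GRCm39 per the submitters' processing notes). Both strands were searched for 3 short motifs. TTTGAA, the core of the cell cycle genes homology region (CHR) to which MuvB binds, was in 27 of the 37 windows (73%), against 17.9% of all 32851 windows. CCAAT, the box bound by NF-Y, was in 28 (75.7%) against 37.4%, and at least 2 copies were in 18 (48.6%) against 11.7%. A window with both motifs was found in 24 (64.9%) against 6.95%. TTCCCGC, an E2F-type motif of replication genes, was in 1 (2.7%, the Ncapg window) against 4.6%. Only these exact letters were searched, so other forms of E2F site were not counted, in Mybl2 and Birc5 as elsewhere. A match is a run of letters and no measured binding site.

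The stretches below are the 120 bases before the start for genes whose stretch touches no annotated exon. The first 6 show how the motifs are arranged, and Birc5 and Mybl2 are shown beside them because their whole window held none of the 3 motifs. Letters run 5′ to 3′ on the gene's strand, and capitals mark the CHR core and the CCAAT box, in either orientation.
Top2a: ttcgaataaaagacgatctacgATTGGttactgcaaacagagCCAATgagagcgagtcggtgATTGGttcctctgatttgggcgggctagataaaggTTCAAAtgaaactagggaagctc
Mki67: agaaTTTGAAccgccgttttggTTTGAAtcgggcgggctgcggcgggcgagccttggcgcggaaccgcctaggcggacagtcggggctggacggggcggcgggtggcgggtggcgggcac
Ccnb2: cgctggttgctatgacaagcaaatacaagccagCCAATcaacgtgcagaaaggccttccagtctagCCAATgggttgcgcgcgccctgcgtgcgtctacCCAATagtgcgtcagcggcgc
Hmmr: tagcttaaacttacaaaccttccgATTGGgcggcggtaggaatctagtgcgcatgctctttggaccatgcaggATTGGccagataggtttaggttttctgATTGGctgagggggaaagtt
Kif11: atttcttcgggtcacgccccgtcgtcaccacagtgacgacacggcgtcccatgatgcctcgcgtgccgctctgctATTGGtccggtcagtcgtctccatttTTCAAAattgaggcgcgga
Ect2: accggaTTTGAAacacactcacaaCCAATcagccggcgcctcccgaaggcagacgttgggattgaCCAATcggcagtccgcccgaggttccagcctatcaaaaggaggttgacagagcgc
Birc5: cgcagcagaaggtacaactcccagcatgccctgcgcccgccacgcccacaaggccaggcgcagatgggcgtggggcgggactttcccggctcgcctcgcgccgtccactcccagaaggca
Mybl2: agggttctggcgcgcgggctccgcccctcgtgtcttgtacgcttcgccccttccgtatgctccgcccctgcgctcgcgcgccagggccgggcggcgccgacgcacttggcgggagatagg
These are Top2a chr11:99024190-99024309 (- strand), Mki67 chr7:135716380-135716499 (- strand), Ccnb2 chr9:70421555-70421674 (- strand), Hmmr chr11:40733438-40733557 (- strand), Kif11 chr19:37376262-37376381 (+ strand), Ect2 chr3:27153879-27153998 (- strand), Birc5 chr11:117849117-117849236 (+ strand) and Mybl2 chr2:163054515-163054634 (+ strand), all in GRCm38.p6 coordinates. Ccnb2 and Hmmr show a row of 3 CCAAT motifs, Top2a shows 3 followed by a CHR letter run nearer the start, and Mki67 shows 2 CHR runs and no CCAAT in this stretch. Birc5 and Mybl2, without any such match, rose with the others in DM (below). Another 4 members had windows with none of the 3 motifs: Mad2l1, Nusap1, Ncaph and Nuf2.

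Mitotic genes were more abundant after 5 days in differentiation medium than after 5 days in growth medium, in both genotypes. No library was made at the start of the 5 days, so a rise in DM and a fall in GM cannot be told apart. For genes, the words rose, fell and response mean a difference between the media after 5 days. The density of the GM cultures by then is not given in the sources. In WT cells all 43 members rose (18.4% of all genes tested rose and 14.8% fell), 39 of them at least 2-fold (6.75% of all genes). The median log2 change, given here as DM minus GM, was 1.51, against -0.01 over all genes tested, and ran from 0.95 (Smc4) to 2.08 (Nusap1). In KO-labelled cells 42 of 43 rose (20.8% of all genes, with 19.8% falling), 31 at least 2-fold (7.14%), with a median of 1.31 against 0.00 over all genes and a range from 0.33 (Smc4) to 2.32 (Ccnb2). Calls are from edgeR's quasi-likelihood test with Benjamini-Hochberg adjustment over the 13250 genes, at an adjusted p below 0.05, and errors of log2 changes are standard errors. The 43 genes together held 602, 582 and 841 CPM in WT GM and 1597, 1806 and 1992 in WT DM. In KO GM they held 924, 839.8 and 854 CPM, and in KO DM 1853, 1963 and 1934. Every DM library lay above every GM library in this sum, and in 42 of the 43 genes taken singly (97.7%, against 9.25% of all genes tested).

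**Figure D1:**
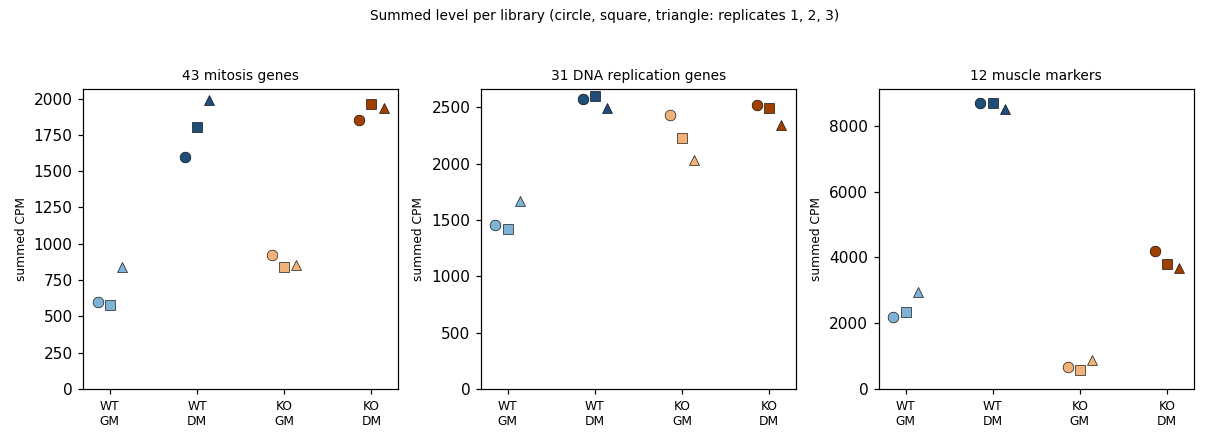
Summed CPM per library (y axis, linear from 0) of the 43 mitosis genes, 31 DNA replication genes and 12 muscle markers, by group (x axis); each point is 1 library. The mitosis sum is 582 to 924 in the GM libraries and 1597 to 1992 in the DM libraries, while the replication sum in KO GM (2031 to 2432) lies above WT GM (1420 to 1670).

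The muscle markers rose in the same comparisons, in 12 of 12 in WT and 11 of 12 in KO-labelled cells, so the mitotic transcripts and the muscle transcripts were both higher in DM. The summed macrophage and leukocyte markers went the other way in WT, and Krt14 was higher in DM. The part of other cells in the mitotic values was not tested. Ordered by group means, 24 members had the order WT GM, KO GM, WT DM, KO DM from lowest to highest, 10 had WT GM, KO GM, KO DM, WT DM, 5 had KO GM, WT GM, KO DM, WT DM and 4 had KO GM, WT GM, WT DM, KO DM. In WT 43 members had no overlap between the groups (23.7% of all genes tested) and in KO-labelled cells 42 (25.6%). All 43 thus had both DM means above both GM means, and the genotypes changed places within a medium.

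**Figure D2:**
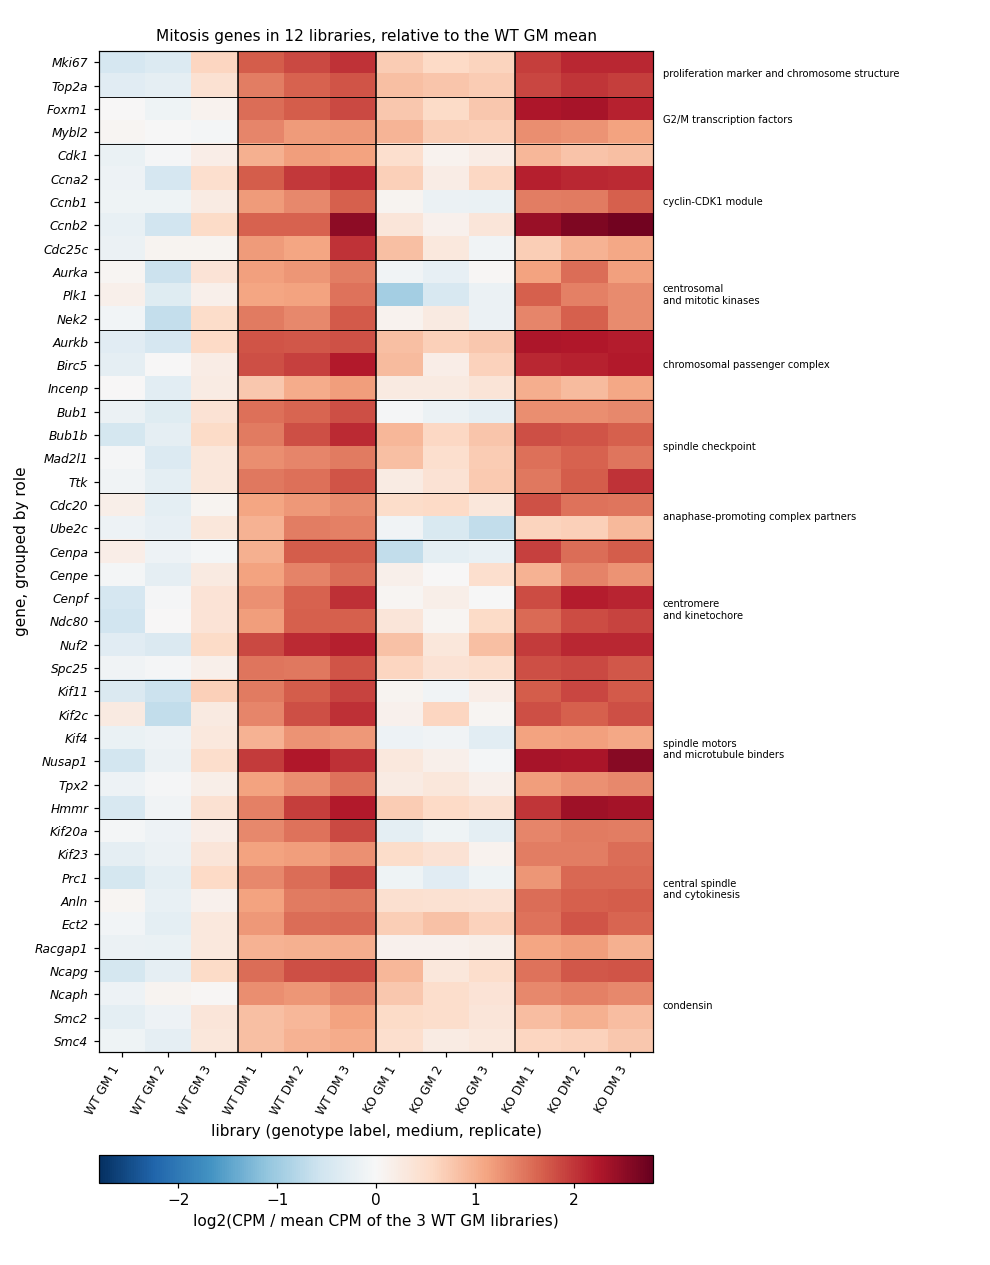
Level of each of the 43 genes (rows, grouped by role) in each of the 12 libraries (columns), as log2 of CPM over the gene's mean in the 3 WT GM libraries; red is higher and blue lower, on a scale centred at 0. The 6 DM columns are red throughout, the WT GM replicate 3 column is redder than its 2 neighbours, and the condensin genes Smc4 and Smc2 are pale among the DM rows.

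The first pair are the proliferation marker Mki67, which coats mitotic chromosomes, and Top2a, the topoisomerase that untangles sister DNA. Mki67 was at 17.5, 18.6 and 36.4 CPM in WT GM, 77.8, 87.2 and 98.2 in WT DM, 39.5, 35.8 and 37.1 in KO GM and 92.5, 104 and 104 in KO DM. Its WT GM values split, with replicate 3 at about the KO GM level and the others well below it. Mki67 rose in DM by 1.86 ± 0.23 (adjusted p = 0.000199) in WT and by 1.42 ± 0.22 (adjusted p = 0.000641) in KO-labelled cells. Top2a was at 48.4, 50.6 and 80.8 CPM in WT GM, 163, 188 and 203 in WT DM, 107, 102 and 97.9 in KO GM and 219.6, 239 and 228 in KO DM. The KO GM libraries were above all WT GM libraries, and DM was above GM in both genotypes without overlap. It rose in DM by 1.62 ± 0.17 in WT and 1.16 ± 0.16 in KO-labelled cells, and in GM it was 0.77 ± 0.17 higher under the KO label (adjusted p = 0.00734).

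The factors that drive late cell cycle transcription, Foxm1 (ENSMUSG00000001517) and Mybl2 (ENSMUSG00000017861), were both called higher in DM and both higher under the KO label in GM. Foxm1 was at 11.9, 10.9 and 12.8 CPM in WT GM, 34.9, 38.5 and 42.5 in WT DM, 20.1, 17.2 and 20.0 in KO GM and 56.6, 58.5 and 52.9 in KO DM. All 4 groups were apart, in the order WT GM, KO GM, WT DM, KO DM. Foxm1 rose in DM by 1.70 ± 0.11 (adjusted p = 1.14e-10) in WT and by 1.55 ± 0.10 (adjusted p = 1.02e-10) in KO-labelled cells, and stood higher under the KO label in GM (0.68 ± 0.12, adjusted p = 0.000179) and in DM (0.53 ± 0.10, adjusted p = 0.00022). Mybl2 was at 13.3, 12.6 and 12.3 CPM in WT GM, 32.9, 29.1 and 29.7 in WT DM, 24.5, 20.6 and 20.3 in KO GM and 31.2, 30.6 and 28 in KO DM. Here KO GM lay between WT GM and DM, and the DM groups of the 2 genotypes overlapped. Mybl2 rose by 1.27 ± 0.12 (adjusted p = 1.51e-08) in WT and by 0.46 ± 0.11 (adjusted p = 0.00152) in KO-labelled cells, and was 0.77 ± 0.12 higher under the KO label in GM (adjusted p = 3.83e-05).

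In the cyclin and CDK1 module Ccna2, Ccnb1 and Ccnb2 encode the activating cyclins, Cdk1 the kinase and Cdc25c the phosphatase that removes its inhibitory phosphates. Ccnb2 was at 3.39, 2.69 and 5.69 CPM in WT GM, 12.3, 12.3 and 22.3 in WT DM, 4.94, 4.25 and 4.97 in KO GM and 21.1, 24.2 and 25.4 in KO DM. It had the largest rise in KO-labelled cells among all members, 2.32 ± 0.24 (adjusted p = 4.98e-07), and rose by 1.99 ± 0.26 in WT, where replicate 3 in DM stood apart from the other 2. Ccnb1 was at 11.6, 11.7 and 14.8 CPM in WT GM, 29.1, 32.4 and 40.8 in WT DM, 13.3, 11.4 and 11.1 in KO GM and 34.2, 34.8 and 40.4 in KO DM, and rose by 1.43 ± 0.14 and 1.62 ± 0.14. The genotypes overlapped in each medium for Ccnb1. Cdk1 was at 36.6, 40.8 and 46.9 CPM in WT GM, 82.7, 93 and 89.8 in WT DM, 57.8, 44.2 and 48.2 in KO GM and 79.1, 72.4 and 74 in KO DM. Its rise was 1.09 ± 0.10 (adjusted p = 1.8e-08) in WT and 0.59 ± 0.10 (adjusted p = 4.77e-05) in KO-labelled cells, where every DM library was lower than any WT DM library. Ccna2 ranged from 11.7 to 26 CPM over the GM libraries and from 52.9 to 73.2 over the DM libraries, and rose by 1.93 ± 0.19 and 1.63 ± 0.18. Cdc25c had the lowest level of the list. It was at 1.44, 1.72 and 1.7 CPM in WT GM, 3.69, 3.47 and 6.59 in WT DM, 2.9, 1.99 and 1.51 in KO GM and 2.63, 3.17 and 3.44 in KO DM, so that KO GM and KO DM overlapped. It rose in WT (1.50 ± 0.33, adjusted p = 0.00101) and was the 1 member not called in KO-labelled cells (0.55 ± 0.32, adjusted p = 0.187). The difference between these responses, -0.95 ± 0.46 (adjusted p = 0.216), did not pass the test.

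The kinases of the centrosome and spindle poles, Aurka, Plk1 and Nek2, showed no called difference between genotypes. Plk1, which triggers mitotic entry and centrosome maturation, was at 10.6, 7.52 and 10.6 CPM in WT GM, 20.5, 21 and 27.5 in WT DM, 4.94, 7.02 and 8.51 in KO GM and 30.6, 25.6 and 23.9 in KO DM. It rose by 1.27 ± 0.18 (adjusted p = 7.96e-06) in WT and by 1.95 ± 0.18 (adjusted p = 1.89e-08) in KO-labelled cells, and its GM level had the lowest KO-labelled against WT change of all members (-0.48 ± 0.20, adjusted p = 0.0956), with 1 KO GM library inside the WT GM range. Nek2, which separates the centrosomes, was at 6.79, 4.51 and 10.2 CPM in WT GM, 19.7, 18.2 and 23.6 in WT DM, 7.73, 8.49 and 6.38 in KO GM and 18.5, 22.8 and 18 in KO DM, and rose by 1.51 ± 0.21 and 1.39 ± 0.20. Aurka, the kinase that builds the spindle poles, rose by 1.28 ± 0.19 and 1.39 ± 0.19.

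The chromosomal passenger complex corrects faulty attachments of chromosomes to the spindle. Its kinase, Aurkb, was at 7.3, 6.56 and 13.3 CPM in WT GM, 30.8, 30.2 and 31.1 in WT DM, 16.2, 14.3 and 15.2 in KO GM and 43.8, 42.6 and 41.4 in KO DM. The 3 WT DM libraries were almost equal, and all KO DM libraries exceeded them. Aurkb rose in DM by 1.76 ± 0.17 (adjusted p = 7.61e-08) in WT and 1.49 ± 0.15 (adjusted p = 1.57e-07) in KO-labelled cells, and under the KO label it was higher in GM (0.74 ± 0.18, adjusted p = 0.00445) and in DM (0.47 ± 0.14, adjusted p = 0.0172). Birc5, survivin, was at 5.35, 6.34 and 7.29 CPM in WT GM, 22.1, 23.7 and 29.3 in WT DM, 11.7, 7.19 and 9.93 in KO GM and 27.2, 28 and 29.3 in KO DM. It rose by 1.98 ± 0.17 (adjusted p = 5.3e-09) and 1.56 ± 0.16 (adjusted p = 4.54e-08). Incenp, the scaffold of the complex, had the smallest rise of the role in WT, from 23.2 ± 4.17 to 46.1 ± 6.77 CPM (SD, n = 3; 0.99 ± 0.12), and from 28.3 ± 1.26 to 46.2 ± 3.47 in KO-labelled cells (0.71 ± 0.12).

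The spindle checkpoint genes Bub1, Bub1b, Mad2l1 and Ttk hold back anaphase until all chromosomes are attached. Bub1b was at 6.58, 7.74 and 13.4 CPM in WT GM, 25.5, 32.1 and 39.6 in WT DM, 17.6, 13.9 and 15.8 in KO GM and 32.3, 31.4 and 29.6 in KO DM. It rose by 1.81 ± 0.21 (adjusted p = 8.76e-06) in WT and by 0.99 ± 0.20 (adjusted p = 0.000937) in KO-labelled cells, where GM levels were already above all WT GM libraries. Mad2l1 was at 16.7, 13.2 and 21.4 CPM in WT GM, 41.9, 43.9 and 46.7 in WT DM, 30.6, 23.8 and 28.1 in KO GM and 49.9, 53.7 and 48.1 in KO DM. It rose by 1.37 ± 0.13 and 0.88 ± 0.12 and was higher under the KO label in GM (0.68 ± 0.13, adjusted p = 0.000763). Bub1, a kinase of the same checkpoint, was at 7.41, 6.56 and 10.9 CPM in WT GM, 24.3, 25.5 and 28.8 in WT DM, 8.16, 7.45 and 7.01 in KO GM and 20.4, 20.4 and 21.1 in KO DM and rose by 1.66 ± 0.15 and 1.45 ± 0.16. Ttk, the kinase MPS1, rose by 1.60 ± 0.19 and 1.28 ± 0.18.

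**Figure D3:**
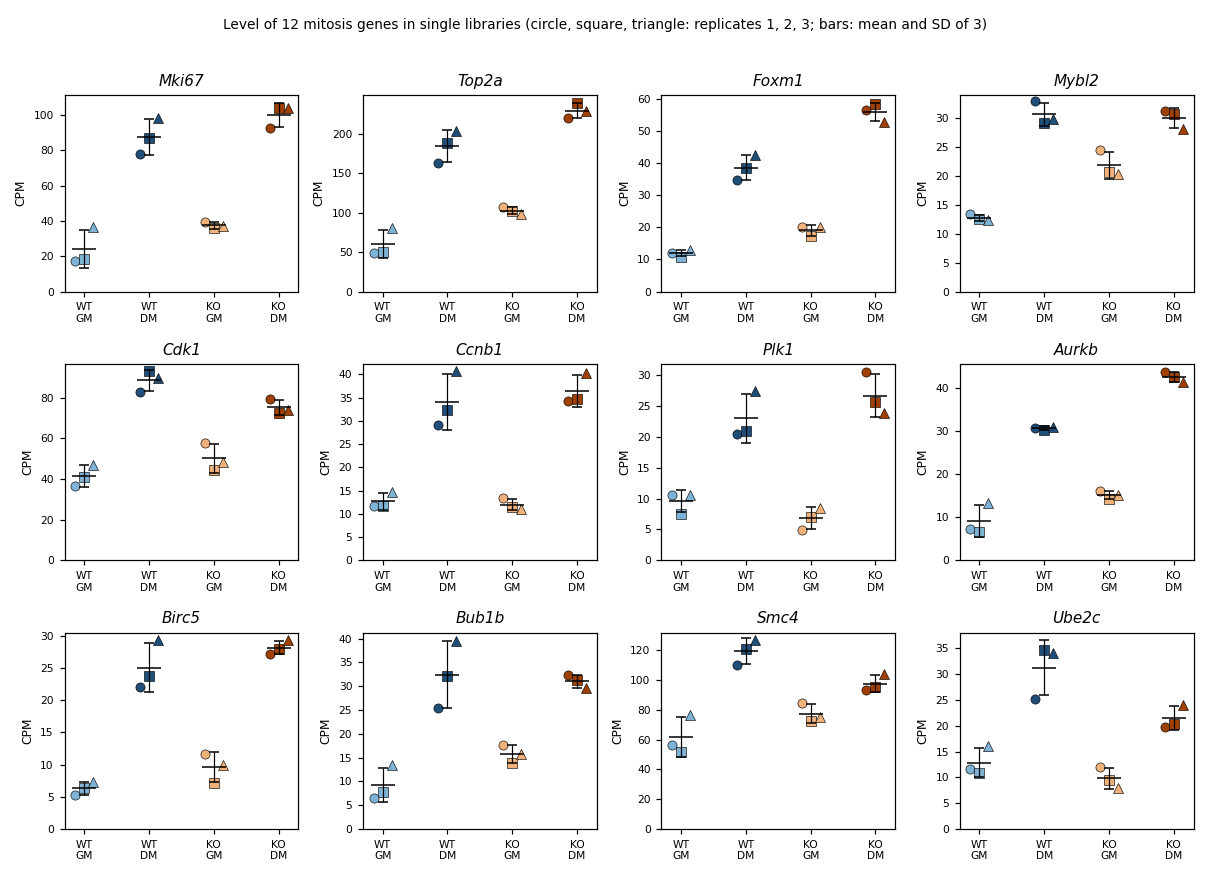
CPM (y axis, linear from 0) of 12 of the genes by group (x axis); points are single libraries, and bars show the mean and SD of 3. Foxm1 and Aurkb are higher in DM than in GM, and higher under the KO label in each medium. Mybl2 in KO GM (20.3 to 24.5) sits between WT GM and DM. Cdk1, Smc4 and Ube2c do not overlap between KO DM and WT DM (called for Ube2c). WT GM replicate 3 is the high point of its group for Mki67, Top2a and Bub1b.

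At the other end of the checkpoint, Cdc20 activates the anaphase-promoting complex and Ube2c is the ubiquitin-conjugating enzyme that serves it. Cdc20 was at 12.4, 9.13 and 11.7 CPM in WT GM, 23.8, 25.8 and 27.9 in WT DM, 15.9, 16.2 and 13.8 in KO GM and 38.3, 32 and 31.2 in KO DM. It rose by 1.22 ± 0.14 and 1.14 ± 0.13 in DM and was higher under the KO label in both media (0.46 ± 0.14, adjusted p = 0.0206 in GM; 0.38 ± 0.12, adjusted p = 0.0191 in DM). Ube2c was at 11.6, 10.9 and 16.1 CPM in WT GM, 25.1, 34.7 and 34 in WT DM, 12, 9.53 and 7.98 in KO GM and 19.8, 20.4 and 24.1 in KO DM. It rose by 1.28 ± 0.17 and 1.13 ± 0.17, and was the 1 member called lower in KO DM than in WT DM (-0.55 ± 0.16, adjusted p = 0.0105), with no overlap. Exons of Ube2c overlap those of the muscle gene Tnnc2 on the opposite strand (GENCODE M21), and whether the counting used strand is not stated in the labels. Tnnc2 was at 25.4 ± 8.73 CPM in WT GM, 154 ± 24.8 in WT DM, 2.07 ± 0.828 in KO GM and 27.5 ± 3.47 in KO DM (SD, n = 3), so it too was lower in KO DM (-2.48 ± 0.23). How far the Ube2c value rests on shared reads was not tested. Other members whose exons overlap an expressed gene (536 to 11016 counts over all libraries) were Ccna2 (Exosc9), Cdc20 (Elovl1), Kif20a (Cdc23), Kif4 (Pdzd11), Ncapg (Lcorl), Nusap1 (Oip5) and Prc1 (Rccd1), all on opposite strands.

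At the centromere and kinetochore, where microtubules attach, all 6 members rose in both genotypes. Nuf2, a subunit of the Ndc80 complex, was at 4.22, 3.98 and 7.59 CPM in WT GM, 19, 22.3 and 23.7 in WT DM, 9.23, 6.59 and 9.4 in KO GM and 20.4, 22.9 and 22.7 in KO DM. It rose by 2.04 ± 0.20 (adjusted p = 3.97e-08) in WT and by 1.39 ± 0.18 (adjusted p = 2.24e-06) in KO-labelled cells. Cenpe, the motor that moves chromosomes to the spindle equator, was at 7.61, 6.66 and 9.38 CPM in WT GM, 17.2, 20.6 and 23.2 in WT DM, 8.7, 7.89 and 11 in KO GM and 15.4, 20.7 and 18.9 in KO DM, and rose by 1.37 ± 0.17 and 1.00 ± 0.17. The Ndc80 and Spc25 genes, of the same complex as Nuf2, rose by 1.53 ± 0.20 and 1.59 ± 0.13 in WT and by 1.45 ± 0.19 and 1.31 ± 0.13 in KO-labelled cells. Spc25 was also higher under the KO label in GM (0.48 ± 0.14, adjusted p = 0.0178), as was Nuf2 (0.66 ± 0.21, adjusted p = 0.0285). Cenpa, the histone variant that marks the centromere, was at 5.55, 4.41 and 4.69 CPM in WT GM, 9.79, 15.7 and 15.9 in WT DM, 3.01, 4.07 and 4.26 in KO GM and 18.3, 14.5 and 15.8 in KO DM, with KO GM below WT GM and no overlap, although the GM difference was not called (-0.36 ± 0.23, adjusted p = 0.303). It rose by 1.50 ± 0.20 and 2.08 ± 0.20. The large coiled-coil protein gene Cenpf rose by 1.69 ± 0.20 and 1.99 ± 0.19.

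Spindle motors and microtubule binders rose by 1.16 to 2.08 in WT, with Kif4 and Nusap1 at the ends. Nusap1, which bundles spindle microtubules, was at 3.91, 4.94 and 7.88 CPM in WT GM, 21.8, 26.2 and 23 in WT DM, 6.87, 6.15 and 5.41 in KO GM and 27.6, 27.4 and 32.5 in KO DM, and rose by 2.08 ± 0.18 (adjusted p = 8.18e-09) in WT and 2.25 ± 0.17 (adjusted p = 9.92e-10) in KO-labelled cells. Kif4, a motor of chromosome arms, was at 10.2, 10.5 and 14.2 CPM in WT GM, 22.9, 27.9 and 27 in WT DM, 10.5, 10.8 and 9.49 in KO GM and 25.3, 25.8 and 24.5 in KO DM, and rose by 1.16 ± 0.14 and 1.29 ± 0.14. The genotypes overlapped in both media for Kif4, and in DM for Hmmr. Hmmr, a spindle pole protein, ranged from 5.25 to 9.58 CPM for WT GM, 9.84 to 11.7 for KO GM, 19 to 33.4 for WT DM and 28.6 to 37.1 for KO DM. Its rises were 1.89 ± 0.22 and 1.66 ± 0.20. Kif11, the motor that pushes the spindle poles apart, rose by 1.68 ± 0.25 and 1.71 ± 0.24, Kif2c, which depolymerizes microtubules, by 1.76 ± 0.22 and 1.48 ± 0.21, and the spindle assembly factor Tpx2 by 1.32 ± 0.11 and 1.03 ± 0.11. None of the 6 was called between genotypes in either medium.

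The central spindle and cytokinesis genes divide the cell after anaphase. Prc1, which bundles the midzone, was at 13.8, 16.1 and 28.5 CPM in WT GM, 49.7, 57.4 and 70.1 in WT DM, 18, 15.6 and 17.9 in KO GM and 45.6, 59.3 and 59.1 in KO DM, and rose by 1.60 ± 0.24 (adjusted p = 0.000566) and 1.67 ± 0.24 (adjusted p = 0.000328). WT GM replicate 3 was well above the other 2 WT GM libraries and above all KO GM libraries. Racgap1, which with the motor Kif23 forms centralspindlin, was at 42.7, 42.6 and 59 CPM in WT GM, 94.1, 96.2 and 97.3 in WT DM, 52.6, 52.5 and 53.5 in KO GM and 103, 109 and 96 in KO DM. Its replicates in WT DM and KO GM were nearly equal, and it rose by 0.99 ± 0.10 (adjusted p = 5.17e-08) and 0.96 ± 0.10 (adjusted p = 5.44e-08). Anln, an actin ring scaffold, was at 33, 27.6 and 34.4 CPM in WT GM, 69, 86.9 and 88.3 in WT DM, 43.2, 42.6 and 41.7 in KO GM and 93.7, 100.4 and 102 in KO DM. It rose by 1.36 ± 0.10 and 1.22 ± 0.10 and was higher under the KO label in GM (0.42 ± 0.10, adjusted p = 0.0044) and in DM (0.28 ± 0.09, adjusted p = 0.0256). Ect2, the activator of RhoA at the division plane, was at 11.1, 9.56 and 14.2 CPM in WT GM, 26.8, 34.6 and 34.9 in WT DM, 18.8, 20.5 and 18.3 in KO GM and 33.5, 39.2 and 35.9 in KO DM, and was higher under the KO label in GM (0.72 ± 0.14, adjusted p = 0.000748). It rose by 1.47 ± 0.14 in WT and 0.91 ± 0.13 in KO-labelled cells. Kif23 and the motor Kif20a rose by 1.19 ± 0.16 and 1.59 ± 0.12 in WT and by 1.13 ± 0.15 and 1.64 ± 0.12 in KO-labelled cells.

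Condensin compacts mitotic chromosomes, and its 4 genes had the lowest median rise of all roles, 1.14 in WT and 0.63 in KO-labelled cells. Smc4, 1 of the 2 ATPase subunits, was at 56.5, 51.4 and 76.8 CPM in WT GM, 109.9, 121 and 127 in WT DM, 84.8, 72.7 and 75 in KO GM and 93.2, 95.6 and 104 in KO DM. Every WT DM library exceeded every KO DM library, a difference that was not called (-0.29 ± 0.11, adjusted p = 0.0559), and the rise was 0.95 ± 0.11 (adjusted p = 3.15e-06) in WT and 0.33 ± 0.11 (adjusted p = 0.0243) in KO-labelled cells. The call of the KO-labelled rise was lost without KO GM replicate 2 (0.30, adjusted p = 0.0848), KO GM replicate 3 (0.32, 0.0618) or KO DM replicate 3 (0.29, 0.0867). Ncapg was at 6.38, 7.52 and 12.9 CPM in WT GM, 26.5, 31.2 and 31.9 in WT DM, 16.9, 11.1 and 12.6 in KO GM and 25.6, 29.8 and 30.3 in KO DM, and rose by 1.74 ± 0.20 and 1.09 ± 0.19. The partner ATPase gene Smc2 rose by 0.97 ± 0.12 and 0.45 ± 0.12. Ncaph, the kleisin that bridges the ATPases, was at 15.1, 17.6 and 17 CPM in WT GM, 40.9, 39.1 and 42.9 in WT DM, 27.9, 23.2 and 21.5 in KO GM and 42, 43.9 and 41.8 in KO DM. It rose by 1.31 ± 0.11 and 0.82 ± 0.10 and was higher under the KO label in GM (0.54 ± 0.11, adjusted p = 0.00115), where no library overlapped.

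Levels can be set against each other only per length, here in CPM per kilobase of merged exons (GENCODE M21). Smc4 was highest in WT GM, at 11.8 ± 2.58 CPM per kb (SD, n = 3), followed by Cdk1 at 8.4 ± 1.05. In WT DM Smc4 (22.9 ± 1.64) and Top2a (20.5 ± 2.27) did not differ beyond their spread, and in KO DM Top2a led, at 25.4 ± 1.08, above Smc4 at 18.7 ± 1.07. Cdc25c was lowest in every group, from 0.329 ± 0.0315 in WT GM to 0.931 ± 0.353 in WT DM.

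The same responses can be read across genotypes in the plot of the DM response, where 32 of 43 points lie below the line of equality. The test of the difference between responses, KO-labelled minus WT, called 4 members lower (5.25% of all genes tested) and 0 higher (3.61%), with a median of -0.27 against -0.01 over all genes. Mybl2 had the largest called difference, -0.81 ± 0.16 (adjusted p = 0.00262). Smc4 differed by -0.62 ± 0.16 (adjusted p = 0.021), Cdk1 by -0.50 ± 0.14 (adjusted p = 0.0275) and Ncaph by -0.49 ± 0.15 (adjusted p = 0.0466). In each of the 4 the KO GM mean was above the WT GM mean and the DM means were close or lower in KO DM. At an unadjusted p below 0.05 there were 10 lower and 1 higher, and the share of all genes at that threshold was not counted. Both DESeq2 and limma-voom called 3 members lower and 0 higher. Over all genes tested DESeq2 called 724 lower and 517 higher of 13288, and limma-voom 667 and 464 of 13250. Only the Mybl2 call was kept under every alternative run. Without WT GM replicate 3, 13 were called lower, and without replicate 3 of both GM groups 14, with 1 higher. Calls over all genes tested rose in those fits too, from 696 lower and 478 higher to 918 and 738, and to 1336 and 1373. The count of members called lower fell to 1 on leaving out WT GM replicate 1 or 2, WT DM replicate 2 or 3, KO GM replicate 1 or KO DM replicate 1 or 2, and to 2 on leaving out KO DM replicate 3. Over all genes tested, 400 to 478 were lower in these fits. Leaving out KO GM replicate 3 gave 5 members lower and 1 higher, beside 951 and 969 of all genes tested. Ncaph lost its call under 16 of 21 alternatives, DESeq2 (adjusted p = 0.0604) and limma-voom (0.0577) included.

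**Figure D4:**
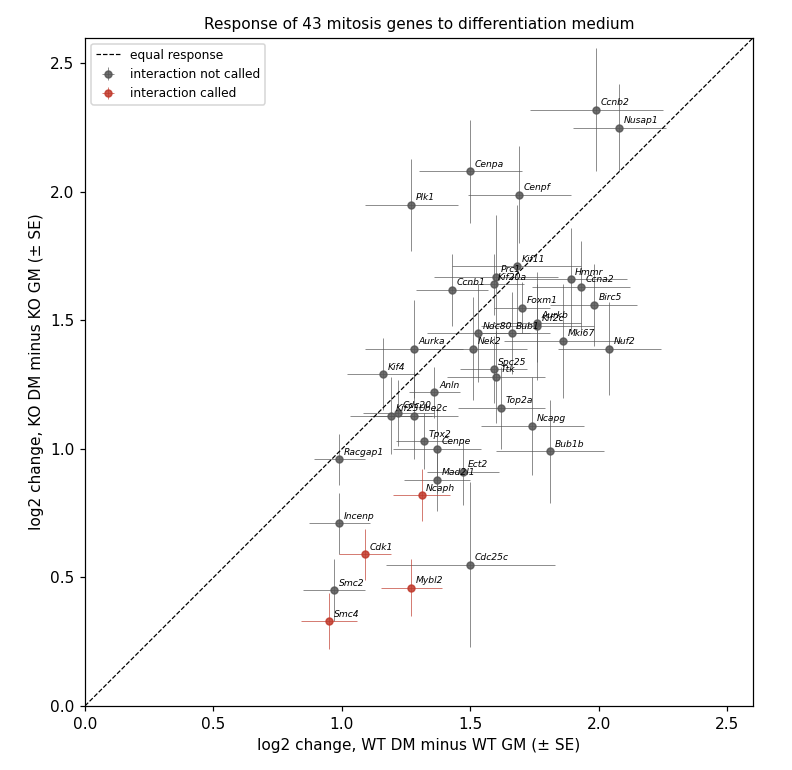
Log2 change in DM for each of the 43 genes in WT (x axis) and in KO-labelled cells (y axis), with standard errors; the dashed line marks equal responses, and red points are genes whose difference in response was called. Mybl2, Smc4, Cdk1 and Ncaph lie below the line, Cdc25c is far below it with wide errors, and Plk1, Cenpa and Ccnb2 lie above it without a call.

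In growth medium the KO-labelled cells had more of 14 members (10.0% of all genes tested were higher) and less of 0 (10.6%), with a median log2 change, KO-labelled minus WT, of 0.33 against 0.00 over all genes. The called members were both transcription factors (Foxm1, Mybl2), Top2a, the checkpoint genes Bub1b (0.76 ± 0.22) and Mad2l1, the passenger genes Aurkb and Birc5 (0.59 ± 0.18), the kinetochore genes Nuf2 and Spc25, Cdc20, the cytokinesis genes Anln and Ect2, and the condensin genes Ncaph and Smc2 (0.46 ± 0.12). None of the cyclin and CDK1 module, the pole kinases or the spindle motors was called. Of the 43, 34 had a higher fitted level and 9 a lower one, from -0.48 (Plk1) to 0.77 (Top2a and Mybl2). Groups did not overlap in 14 higher members (15.8% of all genes tested) and 1 lower, Cenpa (16.5%). At an unadjusted p below 0.05 there were 22 higher and 2 lower, and the share of all genes at that threshold was not counted. DESeq2 called 17 members higher and 0 lower, beside 1257 and 1334 of 15626 genes tested. For limma-voom it was 14 and 0, beside 1301 and 1382 of 13250.

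The count of members called higher in KO GM moved most with WT GM replicate 3. It was the highest of the 3 WT GM libraries in 37 of 43 members (in 40.4% of all genes tested), at a median of 1.42 times the mean of the other 2. Without it 25 members were called higher, with a median of 0.51, beside 1473 of 13485 genes tested. Mki67 went from 0.63 ± 0.24 (adjusted p = 0.106) to 1.05 (adjusted p = 1.46e-07). Leaving out replicate 1 of WT GM or of KO GM gave 9 members, beside 1000 and 1063 of all genes tested. Without WT GM replicate 2 the count was 8 (963 of all genes), with Plk1 then called lower (-0.62, adjusted p = 0.0426). Plk1 was also called lower without KO GM replicate 3 (-0.67, 0.0271), without replicate 3 of both GM groups (-0.59, 0.0494) and with no filter (-0.47, 0.0426). The calls of Foxm1, Mybl2, Top2a, Aurkb, Mad2l1, Anln, Ect2 and Ncaph were kept under all alternatives run, and those of Bub1b, Birc5, Cdc20, Smc2, Nuf2 and Spc25 were lost under some. That library also held the most of the muscle markers in its group (2936 CPM against 2188 and 2336). What set it apart was not tested. In the same comparison all 12 muscle markers were lower under the KO label, and their part in the mitotic values was not tested either.

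**Figure D5:**
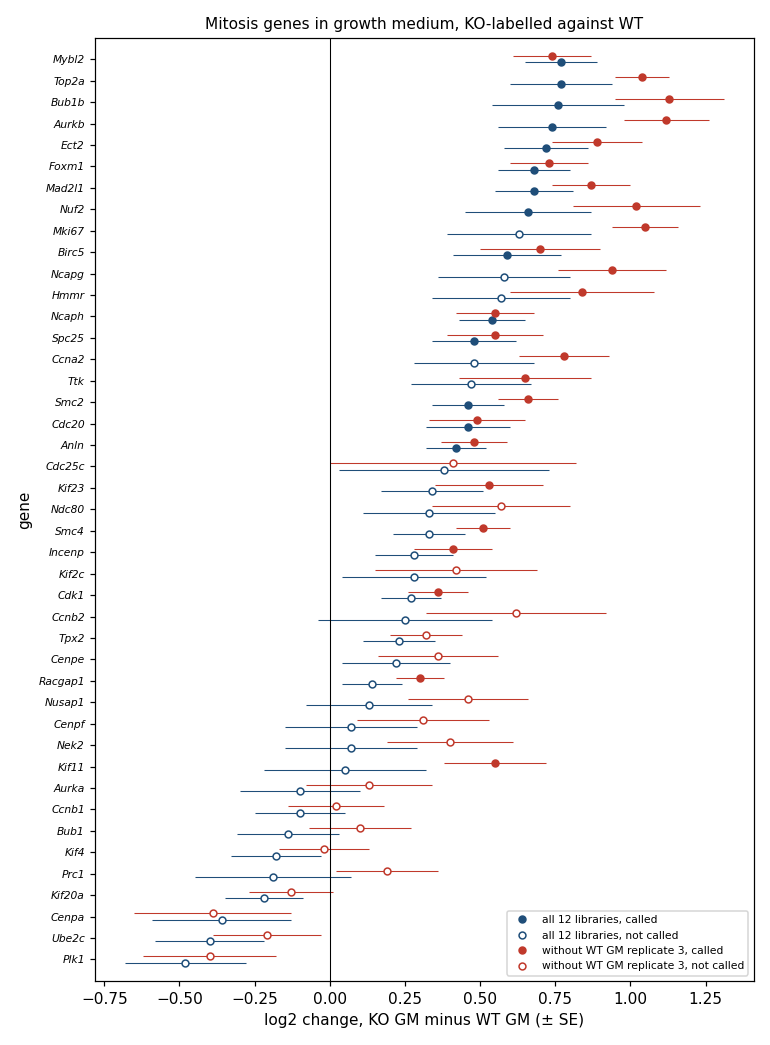
Log2 change, KO GM minus WT GM, with standard errors for each of the 43 genes, ordered by the change over all 12 libraries (blue) and shown again without WT GM replicate 3 (red); filled points are called. Filled points number 14 in blue and 25 in red, and Plk1, Ube2c and Cenpa are at the lower end in both.

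In differentiation medium the KO-labelled cells had more of 5 members (13.6% of all genes tested were higher), namely Foxm1, Cdc20, Anln, Aurkb and Ccnb2 (0.59 ± 0.21, adjusted p = 0.0447; the groups overlapped), and less of 1, Ube2c (17.4% were lower). The median log2 change was 0.10 against -0.02 over all genes, between -0.57 (Cdc25c, adjusted p = 0.155) and 0.59 (Ccnb2). Groups did not overlap in 8 higher (21.3% of all genes tested) and 5 lower (26.2%). DESeq2 called 4 higher and 1 lower, beside 1681 and 2170 of 15236 genes tested, and limma-voom 5 and 3, beside 1798 and 2298 of 13250. Only the Foxm1 call was kept under every alternative run, with changes of 0.48 to 0.63. Over left-out libraries the counts ran from 2 to 9 higher and from 0 to 4 lower. Over all genes tested they ran from 1441 to 2399 higher and from 1736 to 2629 lower. There were 2 members higher on leaving out replicate 1 of either DM group, 3 on leaving out WT DM replicate 2, KO DM replicate 2 or KO DM replicate 3, and 9 on leaving out WT GM replicate 3. Leaving out WT GM replicate 2 gave 2 lower, and leaving out WT GM replicate 3 gave 3. Ube2c lost its call without WT DM replicate 2 or 3 or KO DM replicate 1 or 2 (-0.49 to -0.46, adjusted p = 0.0592 to 0.0703). In a fit of these 6 libraries alone 10 were higher and 4 lower, beside 2431 and 2508 of all 12842 genes tested there. Beside this, 10 of the 12 muscle markers were lower in KO DM. Of the 4 macrophage and leukocyte markers tested, Lyz2 (2.10 ± 0.26) and Cd14 (1.19 ± 0.16) were higher, and Cd68 and Csf1r were not called. Krt14 was higher (2.32 ± 0.28), and was the only 1 of the 7 epithelial markers with enough counts to be tested. Their part in the mitotic values was not tested.

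Replicates of the WT groups varied together in these genes. In WT DM replicate 3 was the highest library for 37 of 43 members (33.1% of all genes tested) and replicate 1 the lowest for 36. Under the KO label this was less so. Replicates 1, 2 and 3 were the highest for 24, 8 and 11 members in KO GM and for 8, 18 and 17 in KO DM. The median coefficient of variation between the 3 libraries was 21.9% in WT GM, 13.2% in WT DM, 9.62% in KO GM and 6.34% in KO DM, against 10.4%, 8.18%, 9.85% and 7.8% over all genes tested. WT cultures thus spread more than the typical gene in these transcripts, and the KO-labelled cultures about as much or less.

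A further 65 mitotic genes, listed beside the members, mostly rose in DM too. In WT 56 rose in DM and 1 fell (median 1.25), and in KO-labelled cells 49 rose and 2 fell (0.87), beside 18.4% and 14.8% of all genes in WT and 20.8% and 19.8% in KO-labelled cells. The largest rises were in the kinetochore gene Cenph (2.35 ± 0.30), Depdc1a (2.06 ± 0.22) and the motor Kif15 (2.06 ± 0.24) in WT, and in Fam83d (2.03 ± 0.23), Aspm (1.89 ± 0.20) and Cdca3 (1.89 ± 0.20) in KO-labelled cells. Another 8 were not called in WT and 14 in KO-labelled cells. The genes called as falling were Zw10, of the checkpoint's kinetochore arm, in both (-0.41 ± 0.11 and -0.41 ± 0.10), and the phosphatase gene Cdc25b in KO-labelled cells (-0.45 ± 0.11). Cdc25b was also lower under the KO label in GM (-0.63 ± 0.10) and DM (-1.06 ± 0.11). In GM 25 of the 65 were higher under the KO label and 1 was lower (12 to 36 higher over the alternatives), beside 10.0% and 10.6% of all genes tested. In DM 5 were higher and 2 lower, beside 13.6% and 17.4%. The difference in response was called lower in 6 and higher in 0 (2 to 19 lower over the alternatives), beside 5.25% and 3.61% of all genes.

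The 31 DNA replication genes, which act in S phase before mitosis, were counted in the same way. In WT 30 rose in DM (median 0.80, beside 18.4% of all genes tested). In KO-labelled cells 9 rose and 2 fell (median 0.16, beside 20.8% and 19.8%), and 25 were higher under the KO label in GM (median 0.63, beside 10.0%). Their summed level was 1457, 1420 and 1670 CPM in WT GM and 2432, 2225 and 2031 in KO GM, and 2575, 2600 and 2498 in WT DM and 2522, 2495 and 2348 in KO DM. Every KO GM library was above every WT GM library. The difference in response was called lower in 21 of 31 (17 to 25 over the alternatives, beside 5.25% of all genes), most in the licensing factor Cdc6 (-1.29 ± 0.14, adjusted p = 4.02e-06), the cyclin Ccne2 (-1.12 ± 0.20) and the helicase subunit Mcm3 (-1.02 ± 0.12). In the mitotic members it was 4 of 43, and the 2 lists were not tested against each other.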

How the data were processed

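RNA from 12 libraries (4 groups of 3) had been sequenced as paired-end 150 bp reads, per the labels' protocols. The authors' deposited table holds raw counts (whole numbers) for each Ensembl gene. GRCm39, DESeq2 1.40.2, R 4.3.1, RSEM 1.3.3 and STAR 2.7.1a are named in the submitters' processing notes, without their roles. The counting tool and its strand option are not given. Empty columns (4) were not used.

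Counts were fitted in R 4.3.3 with edgeR 4.0.16 (filterByExpr, TMM, robust quasi-likelihood, 1 model over all 12 libraries, 5 contrasts, 2-sided). The 13250 genes tested held 99.9% of counts. The fit was tested on simulated counts. Alternatives were DESeq2 1.42.0, limma-voom (3.58.1), other scaling, no filter, a replicate block, 6-library fits and left-out libraries. Those for the other lists were added after seeing the data.

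Members, lists and tests were chosen with earlier results of these data known. Named with values were the largest and smallest WT change of each role, members whose call differed from their role, and a panel (Mki67, Top2a, Cdk1, Ccnb1, Aurkb, Plk1, Birc5, Foxm1, Mybl2), with up to 3 genes of each other list. Other genes named, such as Zw10 and Cdc25b, were singled out after their values were seen. Promoter sequences are RefSeq's (GRCm38.p6).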

Additional observations from a re-analysis of the deposited data

Results flagged for a closer look

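The response to DM differed between WT and KO-labelled cells by a test of the difference itself in 4 of the 43 members, all lower. Of all genes tested 5.25% were called lower and 3.61% higher. The 4 members were Mybl2 (-0.81, adjusted p = 0.00262), Smc4 (-0.62, 0.021), Cdk1 (-0.50, 0.0275) and Ncaph (-0.49, 0.0466), as log2 differences of the KO-labelled response minus the WT response. All 4 rose in DM in both genotypes, less so under the KO label. Across the alternatives run the difference was -0.84 to -0.70 for Mybl2, -0.81 to -0.49 for Smc4, -0.60 to -0.37 for Cdk1 and -0.56 to -0.36 for Ncaph. Only the Mybl2 call was kept under all of them, and the calls of Smc4, Cdk1 and Ncaph were lost under some.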

How the results depend on the processing

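The WT response to DM kept its 43 calls under all 22 alternatives, and the KO-labelled response had 41 or 42. No called change reversed, and the median of all genes lay between -0.05 and 0.05 with every scaling run. With no filter, KO GM against WT GM had 1 member lower, KO DM against WT DM 8 higher and 2 lower, and the difference in response 1 higher and 9 lower. Over all 21858 genes then tested these counts were 1521 lower, 2068 higher and 2231 lower, and 711 higher and 774 lower. For KO DM against WT DM limma-voom gave 3 members lower, beside 2298 of 13250 genes. The fit of the 6 libraries compared gave 10 members higher and 4 lower, beside 2431 and 2508 of 12842 genes. Leaving out libraries gave 8 to 25 higher and 0 to 1 lower in KO GM against WT GM (median 0.26 to 0.54), 2 to 9 higher and 0 to 4 lower in KO DM against WT DM, and 0 to 1 higher and 1 to 14 lower for the difference in response. Counts over all genes tested moved in the same fits, for the difference in response between 293 and 1373 higher and between 400 and 1336 lower. The cause was not tested. A filter of 1 CPM in 3 libraries kept the same 13250 genes. Total counts alone moved the share of higher among all called genes from 40.7% to 57.8% for the difference in response.

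The replicate numbers were not taken to pair the libraries, since the labels do not say that they do. Of 18 comparisons of same-numbered libraries 4 correlated above 0.1 (-0.0851 to 0.186). In 13 of the 18 the library correlated best with its own number, which is a hint from the data and not from the design. With the replicate block the calls were 43, 42 and 18 higher (WT DM, KO DM, KO GM against WT GM), 6 higher and 2 lower in KO DM against WT DM, and 5 lower for the difference in response. Over all 13250 genes tested these counts were 2624, 2887 and 1557 higher, 1974 higher and 2520 lower, and 921 lower.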

Other observations

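The counts that follow are to be read against 18.4% of all genes tested that rose and 14.8% that fell in WT DM, and 20.8% and 19.8% in KO DM. Of 15 subunits and activators of the anaphase-promoting complex, 2 rose in WT DM (Cdc23 0.25 ± 0.09; Cdc16 0.21 ± 0.08) and 5 in KO DM, led by Anapc13 (0.50 ± 0.14), with medians of 0.07 and 0.14. Of 10 cohesin genes 5 rose in WT and 3 in KO-labelled cells, and 1 fell in the latter. The largest change was in Cdca5, sororin (1.66 ± 0.19 and 1.20 ± 0.18), which protects sister cohesion. The E2F, pocket protein and MuvB list (17 genes) had 10 risers in WT and 5 risers and 1 faller in KO-labelled cells. E2f2 rose most in both (1.33 ± 0.11 and 0.79 ± 0.11). In DM the pocket protein gene Rbl2 was higher under the KO label (0.96 ± 0.08), while E2f2, E2f8 and Rb1 were lower (-0.57 ± 0.10, -0.54 ± 0.12 and -0.33 ± 0.10). Rbl2 also stood apart in GM, at 97.6 ± 6.22 CPM in WT GM and 160.2 ± 14.3 in KO GM (SD, n = 3). E2f8 and E2f7, repressive E2Fs, rose in WT (1.15 ± 0.12 and 0.97 ± 0.13) and were not called in KO-labelled cells (0.09 ± 0.12 and 0.12 ± 0.12). The difference in response was called for both (-1.06 ± 0.17, adjusted p = 0.000518 and -0.85 ± 0.18, adjusted p = 0.00459). Their GM levels differed by label. E2f8 was at 19.4 ± 0.163 CPM in WT GM, 27.8 ± 3.34 in KO GM, 42.9 ± 1.99 in WT DM and 29.5 ± 5.67 in KO DM (SD, n = 3). E2f7 was at 14.1 ± 0.468, 25.4 ± 3.34, 27.5 ± 1.4 and 27.5 ± 4.25 in the same order.

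Of 7 genes of cyclin-dependent kinase inhibitors 5 were tested, and 2 rose in WT DM and 3 in KO DM, beside 18.4% and 20.8% of all genes tested. Cdkn1a, which encodes p21, was at 427, 382 and 379.9 CPM in WT GM, 809, 731 and 747 in WT DM, 258, 274 and 265 in KO GM and 642, 575 and 597 in KO DM. It rose by 0.94 ± 0.07 and 1.19 ± 0.07, and was lower under the KO label in GM (-0.58 ± 0.07) and DM (-0.33 ± 0.07). Cdkn2c, p18, rose by 0.51 ± 0.12 and 0.92 ± 0.11. Mitotic genes and these 2 inhibitors of the cycle were thus higher in the same DM libraries.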
